A study of Mus musculus with 6 samples.

Results

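The genes described here are 10 genes of antigen presentation by the major histocompatibility complex (MHC), namely Cd74, H2-Aa, H2-Ab1, H2-Eb1, H2-DMa, H2-DMb1, Ciita, H2-K1, H2-D1 and B2m. They were chosen by name, and every array probe carrying one of these symbols was taken, which gave 20 of the 45281 probes on the array. The samples were RNA from luminal uterine epithelium, the cell layer that lines the uterine cavity, taken from mice at 3.5 days post coitum and hybridised to 6 Illumina bead arrays. The 3 CKO arrays (D, E and F) held samples of conditional knockout females, Alk3flox/flox Pgrcre/+, and the 3 Control arrays (A, B and C) held samples that the labels call Control without naming their alleles. Alk3 is the bone morphogenetic protein receptor Bmpr1a, and its floxed segment covers an exon for part of the extracellular domain. Mice of both groups were hybrids of C57BL/6J and 129S5/SvEvBrd, and no age is given. Cre is made here wherever Pgr, the progesterone receptor gene, is active, which includes uterine stroma and muscle as well as epithelium. The labels neither describe the isolation of the epithelium nor tie each array to its own animal. The p-values therefore reflect variation among these 6 samples, which may be technical.

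MHC class II molecules are pairs of an alpha and a beta chain that carry peptides from endosomes to the surface for CD4 T cells. Cd74, the invariant chain, occupies the groove of new class II molecules, H2-DM exchanges its remnant for peptide, and Ciita is the coactivator that switches these genes on. They are made mainly by macrophages, dendritic cells and B cells, and interferon-gamma can induce them in epithelia. MHC class I molecules, a heavy chain such as H2-K1 or H2-D1 with the light chain B2m, are made by nearly all nucleated cells and show peptides from the cytosol to CD8 T cells.

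The promoters of a pair of class II chains and of both class I heavy chains are shown because Ciita and its class I counterpart Nlrc5 act through a conserved promoter module, of which the Y box is part. Each sequence runs 5' to 3' on the gene's strand, from 250 bases before to 50 bases after a RefSeq transcription start of GRCm38.p6. The window of H2-Aa is chr17:34287774-34288073 on the minus strand and that of H2-Eb1 is chr17:34305617-34305916 on the plus strand. The window of H2-K1 is chr17:34000284-34000583 on the minus strand, for 1 of its 2 listed starts, and that of H2-D1 is chr17:35262844-35263143 on the plus strand. Capitals mark matches, on either strand, to the Y box letters CTGATTGG, to the kappaB site GGGATTCCC and to GAANNGAAA, a part of the interferon response element.
H2-Aa: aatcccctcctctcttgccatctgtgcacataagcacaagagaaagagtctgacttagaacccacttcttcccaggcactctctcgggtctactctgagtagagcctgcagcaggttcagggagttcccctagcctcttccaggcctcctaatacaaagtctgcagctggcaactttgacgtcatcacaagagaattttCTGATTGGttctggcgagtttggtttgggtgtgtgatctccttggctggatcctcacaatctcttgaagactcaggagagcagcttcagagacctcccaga
H2-Eb1: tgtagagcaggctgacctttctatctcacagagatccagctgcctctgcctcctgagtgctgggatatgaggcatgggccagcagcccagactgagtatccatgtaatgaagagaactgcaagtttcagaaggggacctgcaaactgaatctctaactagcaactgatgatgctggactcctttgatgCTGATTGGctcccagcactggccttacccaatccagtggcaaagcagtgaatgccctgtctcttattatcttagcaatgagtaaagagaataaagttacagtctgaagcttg
H2-K1: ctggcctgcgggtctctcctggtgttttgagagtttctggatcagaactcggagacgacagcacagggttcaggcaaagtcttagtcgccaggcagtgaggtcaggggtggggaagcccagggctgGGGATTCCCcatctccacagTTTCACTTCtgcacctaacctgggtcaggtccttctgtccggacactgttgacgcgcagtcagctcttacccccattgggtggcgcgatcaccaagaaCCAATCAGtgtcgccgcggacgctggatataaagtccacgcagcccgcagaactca
H2-D1: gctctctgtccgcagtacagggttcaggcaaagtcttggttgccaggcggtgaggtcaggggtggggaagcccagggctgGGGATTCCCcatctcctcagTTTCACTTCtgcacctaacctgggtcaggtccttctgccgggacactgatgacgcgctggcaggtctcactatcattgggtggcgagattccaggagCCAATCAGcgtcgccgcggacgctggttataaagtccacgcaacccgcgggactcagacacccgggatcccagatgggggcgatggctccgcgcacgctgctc
Of the 7 genes described here that the promoter table holds, the 4 above had the Y box letters on either strand. The share was 4.10% of all 32851 promoters of the same length. The letters stood on the gene's strand in H2-Aa (position -51 from the start) and H2-Eb1 (-62). In H2-K1 (-6) and H2-D1 (-53) they stood on the opposite strand, so there they need not be the Y box of the module. The kappaB letters stood in H2-K1 and H2-D1 and in 0.353% of all promoters. The interferon element letters stood in the same pair and in 7.52% of all promoters. No capitals overlap between motifs. The promoters of H2-K1 and H2-D1 shared 222 of 253 aligned bases, 87.7%. These matches describe the letters only and were not tested as sites.

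Signals below are log2 values after background correction and quantile normalisation, differences are CKO minus Control on that scale, and a probe counted as above background where its detection p-value was under 0.05. A probe was tested if 3 or more of the 6 arrays had it above background, and the brightest tested probe stood for its gene. Of the 20 probes, 17 were tested, covering 9 of the 10 genes, and 3 were below background on all 6 arrays. By limma's adjusted p over all genes (threshold 0.05), 0 of the 9 genes were called, where 0.0168% of the 11940 genes tested were called higher in CKO and 0% lower. Of the 9 genes, 7 lay higher in CKO and 2 lay lower, with a median difference of 0.23, against -0.01 over all genes. Over the 17 probes tested, 0 were called, against 0.0174% of all probes.

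Raw median signals ran from 79.7 to 87.6 and 16620 to 17536 probes per array were above background, and the number of arrays limits the precision. Array E stood farthest from the rest (mean r 0.936) and had the lowest pan-epithelial markers, with a mean deviation of -0.42. All 6 arrays shared 1 chip, with CKO in positions D to F and Control in A to C, so an effect of position and one of group cannot be told apart. The epithelial label was checked against 11 pan-epithelial markers. Of these, 10 were tested, keratins and claudins among them, and Epcam was below background on all 6 arrays. Among 7 luminal epithelium markers 4 were tested, while Calb1, Krt13 and Il1rn were below background on all 6 arrays. Markers of other cells were tested too, namely 5 of 7 glandular, 9 of 13 stroma and 8 of 10 endothelial ones. The lists thus do not show luminal epithelium alone. Bmpr1a, the targeted gene, averaged 8.60 ± 0.31 in CKO and 9.19 ± 0.20 in Control (SD, n = 3 each). The difference was -0.60 (SE 0.22, unadjusted p 0.0317 and adjusted p 0.976 by limma), so the gene was not called. Its groups did not overlap, where 5.01% of all genes lay lower in CKO without overlap. The probe's position relative to the deleted exon is not known here. In bulk samples such as these, fewer cells of a type and less RNA per cell cannot be told apart.

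Cd74 and the class II chains were highest on array F, and the groups overlapped on every probe. Cd74, the invariant chain, had signals of 8.33, 8.43 and 9.31 in CKO (D, E and F), against 7.55, 8.55 and 8.17 in Control (A, B and C). Array F was the highest and array A the lowest, and arrays D and E lay among the Control values, so the groups overlapped. Its means were 8.69 ± 0.54 in CKO and 8.09 ± 0.50 in Control (SD, n = 3 each), a difference of 0.60 (SE 0.36, 95% confidence interval -0.27 to 1.46, adjusted p 0.976 by limma). The other probes of Cd74 differed by 0.40 and 0.42, and the dimmer of these was above background on 3 CKO arrays and 1 Control array.

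H2-Ab1, the beta chain of the A molecule, had signals of 7.98, 8.01 and 9.21 in CKO, against 7.65, 8.15 and 8.02 in Control. Only array F stood outside the Control range, and its difference was 0.46 (SE 0.36, adjusted p 0.976 by limma). A further probe gave 6.36, 7.45 and 8.55 in CKO and 6.90, 7.73 and 7.46 in Control, so that array D was the lowest and array F the highest, with a difference of 0.09. The last H2-Ab1 probe differed by 0.25. H2-Aa, the alpha chain of the same molecule, had signals of 6.48, 6.30 and 7.76 in CKO, against 6.45, 6.91 and 6.31 in Control. Again array F was the highest while E was the lowest, and the difference was 0.29 (SE 0.41, adjusted p 0.977 by limma). H2-Eb1, the beta chain of the E molecule, had signals of 7.23, 7.38 and 8.32 in CKO, against 6.78, 7.35 and 7.26 in Control. Its difference was 0.51 (SE 0.33, adjusted p 0.976 by limma), and array D lay within the Control range. H2-Ea, the alpha chain of the E molecule, which C57BL/6 mice do not express, was below background on all 6 arrays.

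**Figure D1:**
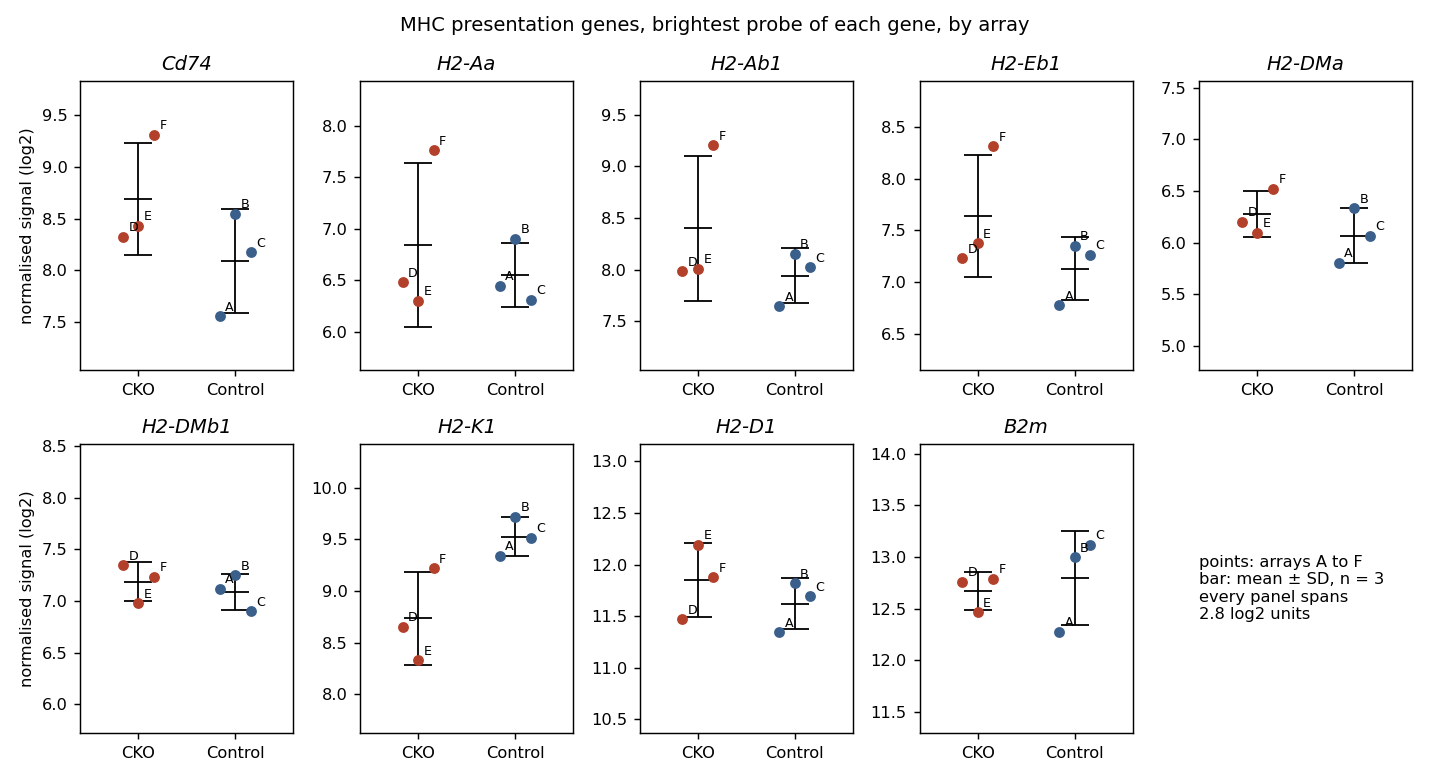
Normalised log2 signal (y axis) of the brightest tested probe of each gene in the CKO arrays D, E and F (left) and the Control arrays A, B and C (right), with the mean ± SD as bars (n = 3 each). Array F lies above the other 5 arrays for Cd74, H2-Aa, H2-Ab1 and H2-Eb1, and by less for H2-DMa. For H2-K1 the 3 CKO values lie below the 3 Control values.

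All 8 probes of Cd74 and the class II chains, from 4 genes, were highest on array F, which was singled out after its values were seen. Of all genes, each by its brightest probe, 10.8% were highest there. On the 8 probes F exceeded the mean of the other 5 arrays by 1.01 to 1.37. Its excess over the highest other array was 0.53 to 1.05, and 0.452% of all genes exceeded every other array by over 0.5 on F. Over the 6 arrays Pearson's r was 0.97 between Cd74 and H2-Eb1 and 0.99 between H2-Ab1 and H2-Eb1, which share the same libraries and the high value on F. Without array F the differences became 0.29 for Cd74, 0.05 for H2-Ab1, -0.16 for H2-Aa and 0.17 for H2-Eb1, so the sign of H2-Aa turned and the others moved by more than 1.5-fold. With array weights, which let arrays count unequally, they were 0.76 for Cd74, 0.89 for H2-Ab1, 0.72 for H2-Aa and 0.85 for H2-Eb1, with adjusted p between 0.291 and 0.420 by limma. Without array A, the lowest for most of these probes, Cd74 differed by 0.33 and H2-Eb1 by 0.33.

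H2-DM, the heterodimer that loads peptide onto class II, was measured by 3 tested probes. H2-DMa, its alpha chain, had signals of 6.20, 6.10 and 6.52 in CKO, against 5.81, 6.33 and 6.07 in Control, a difference of 0.21 (SE 0.21). A dimmer H2-DMa probe had signals of 5.49, 5.40 and 5.96 in CKO, against 5.07, 5.24 and 5.25 in Control, a difference of 0.43 (SE 0.21, unadjusted p 0.0782 by limma). On that probe the groups did not overlap, as for 5.40% of all probes tested that were higher in CKO, but it was above background on 2 of the 3 Control arrays. Both H2-DMa probes were highest on array F, which exceeded the highest other array by 0.19 on the brighter and 0.47 on the dimmer. H2-DMb1, its beta chain, had signals of 7.35, 6.98 and 7.24 in CKO, against 7.12, 7.25 and 6.90 in Control, with groups that overlapped and a difference of 0.10 (SE 0.18). With 1 array left out, the brighter H2-DMa probe ranged from 0.073 (without A) to 0.34 (without B), and H2-DMb1 from 0.0046 (without C) to 0.21 (without E). Ciita, the class II coactivator, was below background on all 6 arrays, with detection p-values between 0.632 and 0.993, and was not tested.

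Markers of the cells that normally carry class II were read beside these values. Of 21 macrophage and dendritic cell markers, 12 were tested, and their summed signal ran from 7283 to 7951 in CKO and from 6934 to 7846 in Control. Cd14 alone made up 82.1% to 92.3% of that sum on each array. Summed without it, the other 11 markers gave 600, 765 and 1405 in CKO, against 537, 982 and 1071 in Control, so that array F was the highest and array A the lowest. Lyz2, the macrophage lysozyme, had signals of 5.71, 7.75 and 8.53 in CKO, against 6.16, 7.31 and 8.21 in Control. C1qc, a complement chain made by macrophages, had signals of 5.26, 6.11 and 7.20 in CKO, against 5.19, 6.67 and 6.42 in Control. Array F was thus the highest for both, as for 5 of the 12 markers, while array A was the lowest for 4. The other markers were highest elsewhere, Csf1r and Aif1 on D, Cd68 and Cd14 on E, C1qa and Zbtb46 on B, and Tyrobp on C. The list's mean deviation from the mean of the 6 arrays was 0.42 on F, between -0.25 and -0.23 on the other CKO arrays, and between -0.40 and 0.23 in Control. For Cd74 and the class II chains it was 0.99 on F, between -0.16 and -0.13 on the other CKO arrays, and between -0.55 and 0.08 in Control.

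The defining markers Itgax, Itgam, Mrc1, Cd209a, Flt3, Xcr1 and Clec9a, of myeloid and dendritic cells, and Ptprc, the pan-leukocyte antigen CD45, were below background on all 6 arrays. Csf1r, Cd68, Aif1 and Zbtb46, which also mark these cells, were tested, with overlapping groups, and Adgre1, Cx3cr1, Cd53 and Rac2 were above background on 1 or 2 arrays. Of 9 pan-leukocyte markers 5 were tested, and their summed signal was 2098 to 2604 in CKO and 2922 to 6384 in Control. Laptm5 made up 48.7% to 95.7% of that sum, and the other 4 markers gave 448 to 1029 in CKO and 262 to 1498 in Control. The list's mean deviations overlapped, at -0.35 to 0.20 in CKO and -0.53 to 0.60 in Control, and 4 of the 5 markers were lowest on array A. Of 9 B cell markers 3 were tested (Cd79b, Blnk and Mzb1), and of 12 T and NK cell markers 2 (Nkg7 and Klrd1). Their groups overlapped. Ms4a1, Pax5, Cd22, Cd3e, Cd3d, Cd4, Cd8a, Ncr1 and Gzmb were below background on all 6 arrays. Cd3g and Cd2 were above background on 2 arrays, and no Fcrla probe was above it on more than 1. Summed signals of B cell markers were 139 to 461 in CKO and 178 to 253 in Control. The highest was on array E, where Blnk had a signal of 8.65. For T and NK cells they were 62.5 to 111 in CKO and 58.0 to 175 in Control. Array F also had the lowest stroma markers, with a mean deviation of -0.99 against 0.84 on both D and E and -0.34 to -0.16 in Control, and the lowest endothelial markers (-0.80). The part of these cell types in the class II values was not tested.

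**Figure D2:**
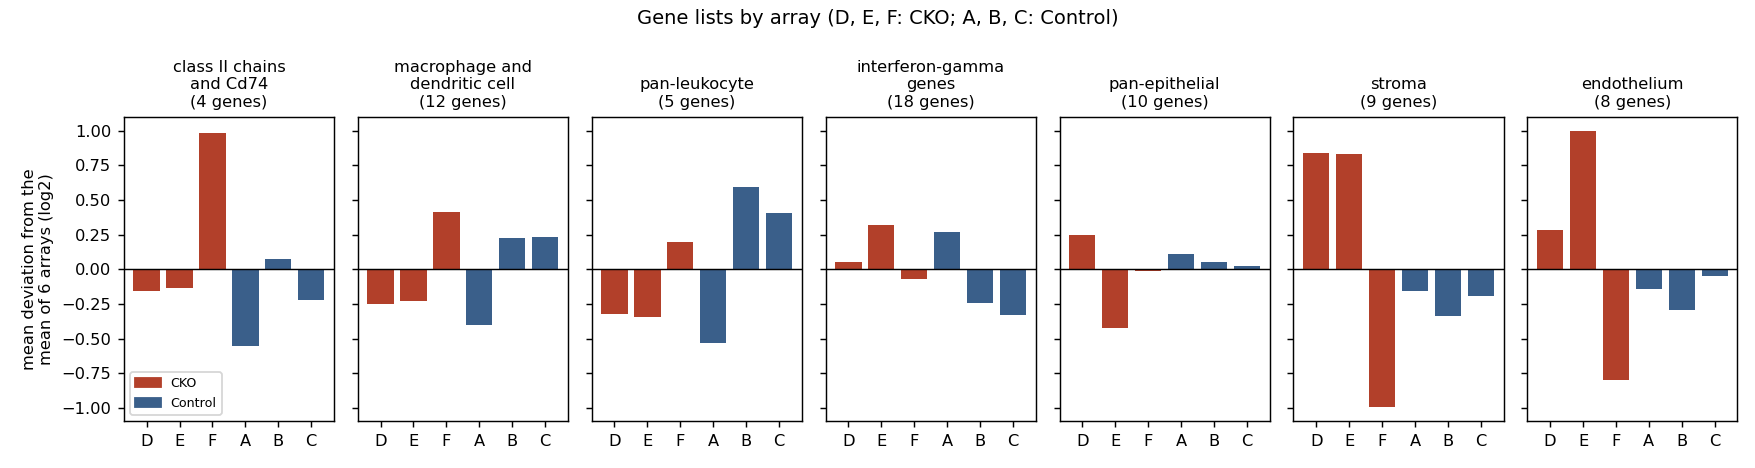
Mean deviation of each list's tested genes from their mean over the 6 arrays (log2, y axis), by array, with CKO arrays D, E and F left of Control arrays A, B and C. Cd74 and the class II chains reach 0.99 on array F, where macrophage and dendritic cell markers reach 0.42 and stroma markers -0.99.

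Of the class I heavy chains, H2-K1 lay lower on every CKO array without being called, and H2-D1 overlapped between the groups. H2-K1 had signals of 8.65, 8.33 and 9.22 in CKO, against 9.34, 9.72 and 9.51 in Control, which in raw intensity was 424.9, 389.8 and 616 in CKO, against 767.5, 978.5 and 771.9 in Control. Each CKO array lay below each Control array, with array F the nearest to the Control values. The groups likewise did not overlap, with CKO lower, for 5.01% of all genes. Its means were 8.74 ± 0.45 in CKO and 9.52 ± 0.19 in Control (SD, n = 3 each), a difference of -0.79 (SE 0.26, 95% confidence interval -1.42 to -0.16), which is 1.73-fold lower in CKO. The unadjusted p was 0.0210, and 4.72% of all genes had one under 0.05, so that the adjusted p was 0.976 by limma and the gene was not called.

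A dimmer H2-K1 probe had signals of 5.56, 5.49 and 4.94 in CKO, against 5.65, 6.14 and 6.13 in Control. It differed by -0.64 (SE 0.25, unadjusted p 0.0360 by limma, where 4.56% of all probes had one under 0.05) and its groups did not overlap either, as for 4.94% of all probes that were lower in CKO. It was above background on 2 CKO arrays and all 3 Control arrays, and on array F, where the brighter probe was highest within CKO, it was lowest. Without array F the difference of H2-K1 was -1.03, with an adjusted p of 0.832 by limma, and without array E it was -0.59.

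H2-D1, the other heavy chain, had signals of 11.47, 12.19 and 11.88 in CKO, against 11.35, 11.82 and 11.69 in Control. Array E was the highest and array A the lowest, and the groups overlapped. The difference was 0.23 (SE 0.24, 95% confidence interval -0.35 to 0.81, adjusted p 0.977 by limma). It was 0.057 without E, 0.093 without A and 0.41 without D. A further H2-D1 probe differed by 0.11, and no array had the last one above background. B2m, the light chain that class I heavy chains normally need to reach the surface, had signals of 12.76, 12.46 and 12.79 in CKO, against 12.27, 13.00 and 13.12 in Control. Its CKO values lay inside the Control range, and the difference was -0.13 (SE 0.26, 95% confidence interval -0.75 to 0.50, adjusted p 0.977 by limma). A further B2m probe differed by -0.15, and no array had the last one above background.

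**Figure D3:**
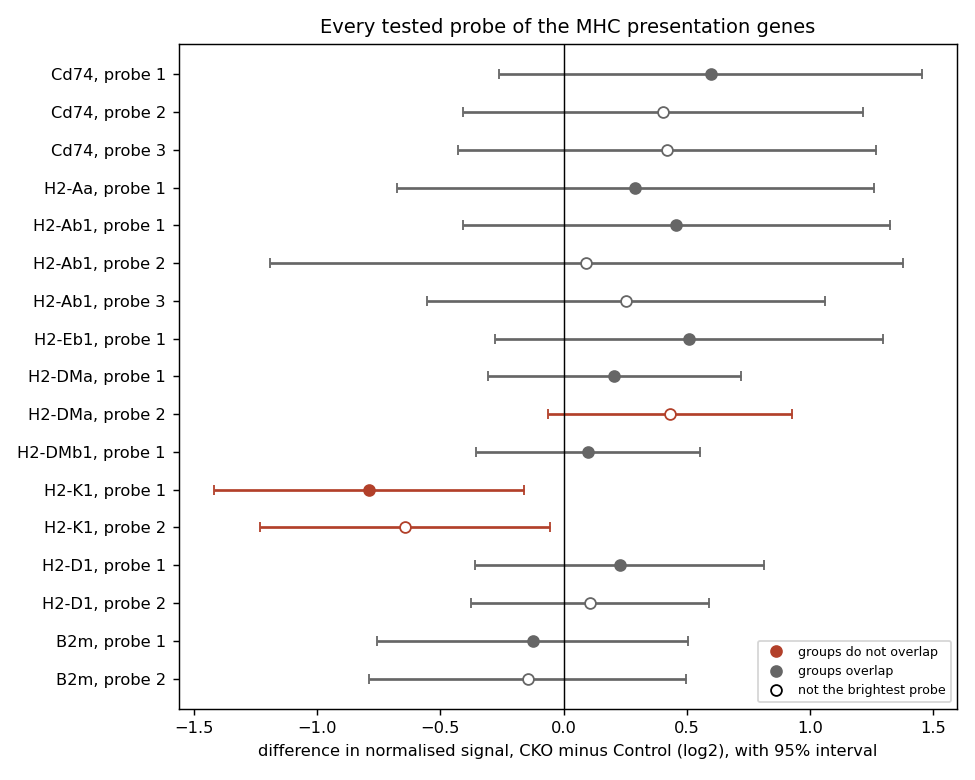
Difference in normalised log2 signal, CKO minus Control, of each of the 17 tested probes (x axis) with 95% confidence intervals from limma, in red where the groups did not overlap and open where a brighter probe stood for the gene. Both H2-K1 probes have intervals below 0, and those of the other genes include 0.

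The signal of H2-K1 relative to that of H2-D1 was compared after their values had been seen. The log2 ratio of the brightest probes was -2.82, -3.86 and -2.66 in CKO, against -2.01, -2.10 and -2.18 in Control, where only the difference between groups can be read, because the probes differ in brightness. The groups did not overlap, and the means were -3.11 ± 0.65 in CKO and -2.10 ± 0.09 in Control (SD, n = 3 each). The difference was -1.02, and without array E it was -0.65. No test is given, because the ratio was formed from values already seen. H2-K1 and H2-D1 are near-identical paralogs, and with no probe sequences in the files used here it is uncertain which copies, or other class I genes, each probe binds.

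The genes most like H2-K1 over the 6 arrays, out of 9952 with established names, were Zscan12 (Pearson's r 0.99), Rab17 (0.99), Rit1 (0.99), Atp2c1 (0.99) and S100a13 (0.98). Those most like Cd74 were Dars (0.98), Pank2 (0.97), Slc10a3 (0.96), Far1 (0.95) and Dhrs11 (0.95). With so many genes and 6 shared arrays, values this high describe a likeness of signal over these arrays and nothing more.

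Class I genes outside the ones above were listed as 33, of which 22 were tested. Of these 13 lay higher in CKO and 9 lower, 0 were called, and the median difference was 0.07. H2-Q7, a class Ib heavy chain, had signals of 7.58, 8.02 and 8.12 in CKO, against 8.44, 8.63 and 8.31 in Control. Each CKO array lay below each Control array, where 5.01% of all genes lay lower in CKO without overlap. The difference was -0.55 (SE 0.21, unadjusted p 0.0332 and adjusted p 0.976 by limma). Of all genes, 4.72% had an unadjusted p under 0.05. The 2 other H2-Q7 probes were not tested. H2-T10, another class Ib heavy chain, differed by -0.64 (SE 0.31) with groups that overlapped. H2-M3, a class Ib molecule that presents formylated peptides, lay higher in CKO by 0.44 (SE 0.17) without overlap, as did 5.64% of all genes. Psme3, a proteasome activator subunit, also lay higher by 0.44 (SE 0.19) without overlap. The peptide transporter subunit Tap1 differed by 0.07 (SE 0.40), the immunoproteasome subunit Psmb8 by 0.02 (SE 0.63) and the loading factor Tapbp by -0.31 (SE 0.55). Nlrc5, the class I coactivator, was below background on all 6 arrays.

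Of 22 other class II pathway genes 15 were tested, 6 higher and 9 lower in CKO, with 0 called and a median difference of -0.05. Creb1, a factor that binds the class II promoter module, had signals of 5.21, 5.73 and 5.61 in CKO and was below background on all 3 Control arrays, where its measured mean was 4.90. It was therefore tested only because of the group in which it was brighter, and without D, E or F it was not tested at all. The lysosomal proteases Ctsb, Ctsd and Lgmn differed by 0.24 (SE 0.18), -0.26 (SE 0.21) and 0.84 (SE 0.70), with overlapping groups. Without array E, Ctsd differed by -0.10 and Lgmn by 0.17, and Lgmn differed by 0.31 without C. Rfx5, a subunit of the factor that recruits Ciita, and H2-Oa and H2-Ob, which inhibit H2-DM, were below background on all 6 arrays.

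Interferon-gamma, the main inducer of Ciita, was read through 28 listed genes. Of these 18 were tested, 12 higher and 6 lower in CKO, with 0 called and a median difference of 0.16. Socs3, a feedback inhibitor of cytokine receptors, had signals of 9.61, 11.26 and 9.94 in CKO, against 9.55, 9.20 and 8.23 in Control. All CKO arrays lay above all Control arrays, with E the highest, and the difference was 1.28 (SE 0.52, unadjusted p 0.0447 by limma). Without array E the difference was 0.79 (unadjusted p 0.102 by limma). Of all genes, 5.64% were higher in CKO without overlap and 4.72% had an unadjusted p under 0.05, and the adjusted p of Socs3 was 0.976 by limma. Ido1, which breaks down tryptophan, differed by 0.99 (SE 0.42) and Irgm2, an immunity-related GTPase, by -0.69 (SE 0.35), both with overlapping groups. Ifngr1, a chain of the interferon-gamma receptor, differed by -0.26 (SE 0.16) without overlap, where 5.01% of all genes lay lower in CKO without overlap. The transcription factor Irf1 differed by 0.15 (SE 0.28). Ifng itself and its targets Cxcl9, Cxcl10 and Cxcl11 were below background on all 6 arrays. Other targets, Gbp2, Gbp3, Igtp and Irgm1, were above background on all 6, with overlapping groups. Gbp2 had signals of 8.36, 11.58 and 7.86 in CKO, against 10.12, 7.96 and 7.61 in Control.

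**Figure D4:**
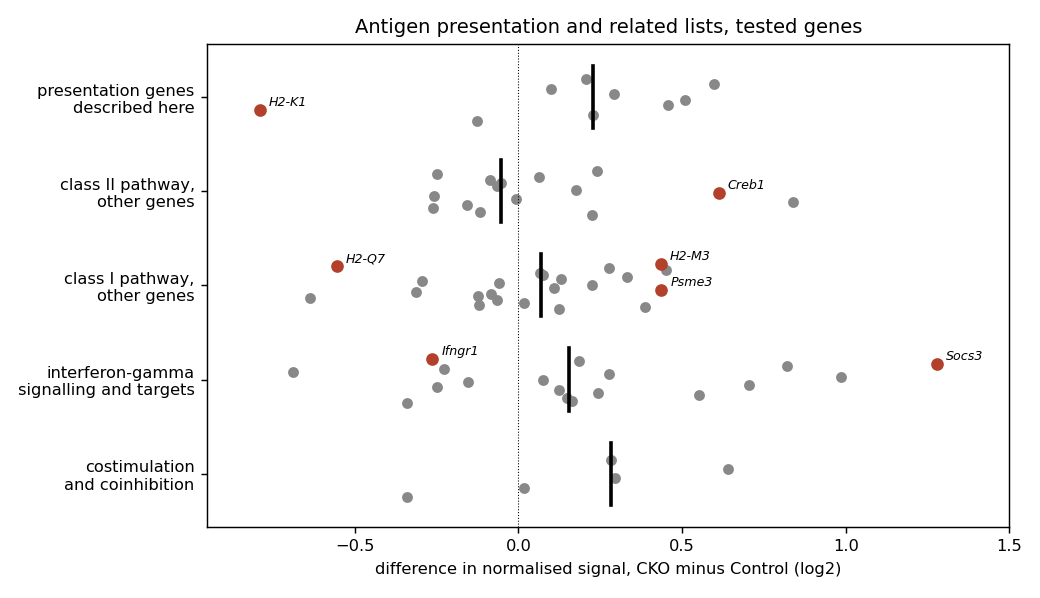
Difference in normalised log2 signal, CKO minus Control (x axis), of every tested gene among those described here and in the 4 pathway lists, 1 point per gene, with black bars at the medians and red points where the groups did not overlap. The medians of the class II, class I and interferon-gamma lists are -0.05, 0.07 and 0.16, and among the genes plotted the farthest to the right and left are Socs3 at 1.28 and H2-K1 at -0.79.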

How the data were processed

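The deposited scanner tables hold, per the file headers, 1 row for each of 45281 probes with the mean bead intensity (linear), its detection p-value and how many beads were read. A second deposited table holds the authors' processed intensity values and served as an alternative. The sources used here do not name the software for either. Background correction used negative controls inferred by limma's neqc (limma 3.58.1, R 4.3.3) from the detection p-values, followed by an offset of 16, quantile normalisation and log2. The offset shrinks differences of dim genes. The filter on detection (3 or more of 6 arrays) left 17291 probes, and the brightest probe of each gene gave 11940 genes. RefSeq names of GRCm38.p6 matched 29370 probes by accession and 6953 by symbol, 8940 kept the file's name and 18 had none.

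The comparison of CKO with Control used lmFit and eBayes of limma with two-sided tests. Benjamini-Hochberg adjustment ran over all genes, or over all probes for probe results. A fold against a group below background on every array is a bound, from the lowest signal above background. In 20 simulated runs on 11940 genes with 200 changed, the tests recovered 0.80% of 1.5-fold changes, 20.8% of 2-fold changes and 68.3% of 4-fold changes. The simulated noise was normal and independent between genes, and changes reached 8-fold, so recovery in the real data may be lower.

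The genes described, the lists and the alternatives were chosen with earlier results of these data known. The text names all 10 genes, Bmpr1a, up to 4 genes with the smallest p of each pathway list, and the genes most like Cd74 and H2-K1. Tap1, Psmb8, Tapbp, Irf1, Gbp2, Gbp3, Igtp, Irgm1, Lyz2, C1qc, C1qa, Tyrobp, Cd79b, Fcrla, Cd3g and Cd2 were chosen after values were seen. So were the further genes named as below background in the pathway and luminal lists. The same holds for the marker sums without Cd14 or Laptm5 and for the ratio of H2-K1 to H2-D1. Promoters were aligned with Biopython 1.88.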

Additional observations from a re-analysis of the deposited data

How the results depend on the processing

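The alternatives were other background corrections, normalisations, filters, probe rules and variance models, the deposited values, and leaving out each array. In all 16 alternatives, 0 of the genes described were called higher and 0 lower, and 0 of their probes were called wherever probes were tested. Over all genes, 0 were called lower in every alternative. The 2 called higher became 1 with normexp without controls, no background correction, median scaling, cyclic loess or the deposited values, 0 with no filter or the strict filter, 5 with array weights, and 0 to 1 with an array left out. H2-K1 ranged from -1.03 to -0.56, with a lowest adjusted p of 0.343 by limma. Of the 9 genes tested, 7 kept their sign throughout. H2-Aa turned to -0.16 without F and ranged from -0.16 to 0.57 with an array left out. B2m turned to 0.030 without C and ranged from -0.38 to 0.030. With array weights Cd276 was -0.045, Cd274 0.14 and Icam1 -0.26. With an array left out, Cd274 ranged from -0.61 to 0.0068 and Icam1 from -0.11 to 0.65. The ratio of H2-K1 to H2-D1 ranged from -1.24 to -0.65 with an array left out. The cause of these changes was not tested. No paired analysis was possible because the groups share no replicate letters. Signal over background limits Cd74, H2-DMa and H2-K1 at their dimmer probes, and Ciita throughout.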

Other observations

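Costimulatory and coinhibitory genes, which decide how a T cell responds to presented peptide, were listed as 11, and 5 were tested. Of these 4 lay higher in CKO and 1 lower, 0 were called, and the median difference was 0.28. Vtcn1, an inhibitory ligand of the B7 family, had signals of 5.98, 7.02 and 6.23 in CKO, against 6.27, 6.17 and 4.87 in Control, with groups that overlapped and a difference of 0.64 (SE 0.45). It was 0.19 without C, 0.33 without E and 0.27 with array weights. Cd276, another B7 family member, differed by 0.30 (SE 0.24). Icam1, an adhesion molecule, differed by 0.28 (SE 0.39). Cd274, the inhibitory ligand PD-L1, had signals of 8.55, 7.57 and 8.39 in CKO, against 8.35, 7.98 and 9.21 in Control, a difference of -0.34 (SE 0.40) with overlapping groups. Cd86, Pdcd1lg2 and Tnfsf4 were below background on all 6 arrays.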
